A study of Mus musculus with 12 samples.

Results

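The enzymes that write, copy and remove DNA methylation were followed in mouse embryonic stem cells built so that RACK1 could be removed from ribosomes. RACK1 protein itself was not measured in these RNA libraries. They are 9 genes, taken because the gene symbol in both tables equals Dnmt1, Uhrf1, Dnmt3a, Dnmt3b, Dnmt3l, Tet1, Tet2, Tet3 or Tdg. The set was chosen with earlier results of these data known. All 9 were found, each with 1 transcript, among 18765 genes at 5 days and 18712 at 10 days. The cells were E14 embryonic stem cells, and all 4 groups carried RACK1-AID together with RPS26-Tir1, the Ribo-Tweezer genotype. The AID tag lets auxin (indole-3-acetic acid, IAA) and the receptor Tir1, here placed on the ribosome, direct RACK1 protein to destruction. The first comparison set cells in IAA for 5 days against cells in the solvent DMSO, and the second set cells 10 days after IAA was withdrawn, following 5 days in it, against a DMSO control. Each group held 3 poly(A) libraries, 12 in all. Nothing in the labels says that replicates came from separate cultures. A p-value here therefore reflects only how these libraries vary, which may be technical.

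DNA methylation in mammals is the addition of a methyl group to cytosine, mostly where a guanine follows (CpG). DNMT3A and DNMT3B place new marks, helped by DNMT3L, which has no catalytic activity of its own. UHRF1 recognises half-methylated CpGs behind the replication fork and brings DNMT1 to copy the mark to the new strand. The TET enzymes oxidise the methyl group, and the glycosylase TDG cuts out the most oxidised forms so that repair can restore plain cytosine. In mouse embryonic stem cells, low DNMT3A and DNMT3B accompany the naive state, and both genes are known to be high in the formative and primed states that follow.

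Because these proteins act on or around CpGs in their various forms, the CpGs in the promoters of their own genes are shown for the member with the largest rise and the one with the largest fall. Each window is the 250 bases before a RefSeq start on GRCm38.p6, written on the strand of the gene with every CpG in capitals. The first window is that of Dnmt3b, chr2:153649199-153649448 on the plus strand, and the second that of Tet2, chr3:133544391-133544640 on the minus strand.
Dnmt3b: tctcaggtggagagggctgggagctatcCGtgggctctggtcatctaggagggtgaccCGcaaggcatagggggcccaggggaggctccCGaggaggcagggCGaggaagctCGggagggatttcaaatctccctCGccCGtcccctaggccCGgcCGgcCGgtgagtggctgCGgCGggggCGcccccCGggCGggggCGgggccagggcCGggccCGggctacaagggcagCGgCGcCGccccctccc
Tet2: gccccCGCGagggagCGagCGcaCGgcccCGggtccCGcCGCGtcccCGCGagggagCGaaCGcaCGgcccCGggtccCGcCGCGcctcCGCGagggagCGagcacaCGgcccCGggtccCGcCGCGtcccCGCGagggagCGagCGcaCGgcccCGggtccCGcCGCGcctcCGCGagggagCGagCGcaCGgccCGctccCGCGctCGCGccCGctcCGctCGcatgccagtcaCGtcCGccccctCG
The Dnmt3b window held 21 CpGs and that of Tet2 held 51, against a median of 6 over all 32851 promoter windows. At least 21 CpGs were present in 16.3% of all windows, and at least 51 in 0.067%. The 9 genes had 16 such windows, from 2 CpGs at the most upstream Dnmt1 start to the 51 of Tet2, with a median of 16. The CpG-rich starts of Dnmt3a held 38 and 40, while its internal start, the one that yields the short form Dnmt3a2, held 15. The 3 starts of Dnmt3l held 5, 4 and 3. Methylation itself was not measured in these libraries.

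Windows of the maintenance genes Uhrf1 and Dnmt1 are shown because, of the 16 windows searched, only these held a match to the strings that follow. The 4 letter strings of the E2F family of cell cycle factors (TTTCCCGC, TTTGGCGC, TTTCGCGC and TTTGCCGC) were searched on both strands, and the capitals mark the match. The windows are chr17:56304063-56304312 on the plus strand for the second start of Uhrf1 and chr9:20952624-20952873 on the minus strand for the third start of Dnmt1.
Uhrf1: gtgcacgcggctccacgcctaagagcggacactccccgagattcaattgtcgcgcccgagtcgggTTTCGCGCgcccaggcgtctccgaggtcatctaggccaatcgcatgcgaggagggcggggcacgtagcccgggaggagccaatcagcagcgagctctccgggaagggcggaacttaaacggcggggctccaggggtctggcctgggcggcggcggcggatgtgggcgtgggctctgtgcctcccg
Dnmt1: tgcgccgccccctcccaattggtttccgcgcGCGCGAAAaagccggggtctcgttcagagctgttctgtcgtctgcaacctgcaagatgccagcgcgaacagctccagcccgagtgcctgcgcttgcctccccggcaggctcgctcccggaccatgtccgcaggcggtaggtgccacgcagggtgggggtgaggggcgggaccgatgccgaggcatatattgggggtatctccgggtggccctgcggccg
Both windows held TTTCGCGC once, forward in Uhrf1 with its first base 185 bases before the start and reversed in Dnmt1, where the match begins 219 bases before it. Each match overlaps CpGs and no other match. These were the only 2 of the 16 windows with any of the strings, which occurred in 1.86% of all promoter windows. Every string contains a CpG, and the windows held 30 CpGs in Uhrf1 and 26 in Dnmt1, against a median of 6. The 1.86% is therefore not a share among windows equally rich in CpGs. Only the windows with a match are printed. The distances of 185 and 219 bases are counted from RefSeq starts that are not those of the listed transcripts. The listed transcript starts at 56303321 for Uhrf1 (plus strand) and at 20952979 for Dnmt1 (minus strand). Both printed windows, and so both matches, lie downstream of these starts and within the span of the listed transcript. A match is a description of these letters and not a site of binding. The part of E2F factors in the falls of these genes was not tested.

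The deposited tables hold no columns of single libraries, so a value per sample cannot be shown and overlap between groups cannot be judged. The level in a group was taken from a gene's mean log2 CPM (read counts scaled to library size) and its fold, and the standard error (SE) beside a fold is the fold divided by the moderated t statistic. As geometric means recovered from genes with a single read, a library held 23.3 M reads in the 5-day table and 21.2 M in the 10-day table. Positive folds are read as higher in IAA-treated cells, which the headers do not state. Regressed on the 5-day fold, the mean level at 5 days minus that at 10 days had a slope of 0.53 ± 0.01 (SE) over the 4772 genes that passed at 5 days and had a row at both times. With like DMSO controls at both times this reading predicts 0.5 and the reverse predicts -0.5. Controls were not alike for every gene. Read this way, derived DMSO levels at 10 days minus 5 days differed by -1.33 log2 CPM for Dnmt3b. The difference was -0.95 for Dnmt3a, whose 5-day fold was also above 0. It was 0.47 for Tet1 and 0.52 for Tet2, with folds below 0, but -0.47 for Dnmt3l, also with a fold below 0. Over 11782 genes the 5th to 95th percentile range was -1.01 to 0.96. Control differences that go with the fold would enter the slope, and their share in it was not tested. Genes are not independent, so the SE is too small. If the reading were wrong, every direction given here would turn.

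After 5 days of IAA the methylases that place new marks rose, while the maintenance pair, the cofactor Dnmt3l and the demethylases Tet1 and Tet2 fell. Of the 9 genes in the authors' deposited table, 3 rose, 5 fell and Tet3 did not pass, a call being a limma p under 0.05 after Benjamini-Hochberg (BH) adjustment. In bulk RNA, fewer cells expressing a gene and less of its RNA per cell cannot be told apart. Over all genes 25.5% passed, 13.5% higher and 12.1% lower. The members are abundant, and abundant transcripts are measured more precisely. All 8 that averaged 6 log2 CPM or more, a level chosen after the values were seen, passed, as did 41.6% of the 3360 genes at that level. The median fold of the 9 genes was -0.19 on the log2 scale, against 0.01 for all genes.

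**Figure D1:**
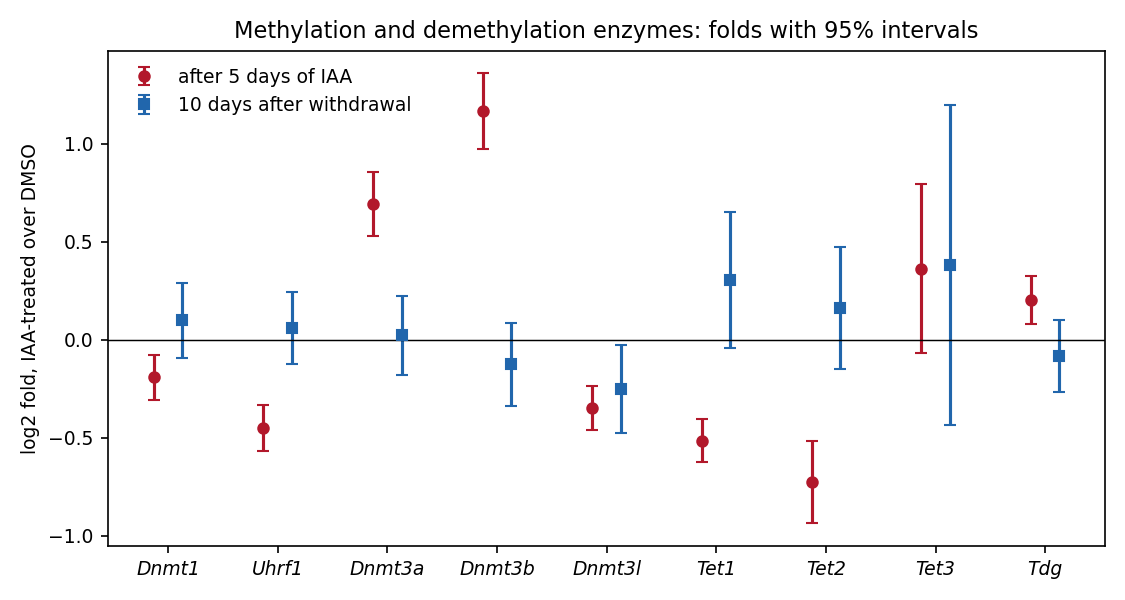
Log2 fold of IAA-treated over DMSO cells (vertical axis) for each of the 9 genes, after 5 days of IAA (red circles) and 10 days after withdrawal (blue squares), with bars for the 95% interval implied by the deposited t statistics. At 5 days Dnmt3b (1.17) and Dnmt3a (0.70) stand above 0 and Tet2 (-0.73), Tet1 (-0.51) and Uhrf1 (-0.45) below it, and at 10 days the intervals of all but Dnmt3l reach across 0.

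Among the methylases for new marks, Dnmt3b changed most. Its derived level was 705 CPM in IAA and 314 CPM in DMSO at 5 days. In the authors' deposited table its log2 fold was 1.17 ± 0.09 (SE, 3 libraries a group, limma BH adjusted p = 2.19e-06), which is 2.25-fold, with a 95% interval of 0.97 to 1.36 on the log2 scale. Its p ranked 48 in the table. None of the 313 other genes with a mean level at or above that of Dnmt3b rose as far, the largest of their folds being 0.43 on the log2 scale. That cut is the mean of Dnmt3b itself (8.88 log2 CPM), which its own rise lifts. Just below it, Lefty1 (mean 8.06) rose further, by 1.26, and Fat1 (8.08) rose by 1.04. The gene lies on chromosome 2, 153649450 to 153687730, plus strand (GENCODE M21, GRCm38), and the listed transcript ENSMUST00000072997.9 has 23 exons.

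Dnmt3a, the other methylase for new marks, moved the same way. Its level went from 144 CPM in DMSO to 233 CPM in IAA. The authors' deposited table gave it a log2 fold of 0.70 ± 0.08 (limma BH adjusted p = 3.02e-05), or 1.62-fold with an interval of 1.45 to 1.81. The listed transcript ENSMUST00000020991.14 (chromosome 12, gene at 3806007 to 3914443, plus strand) is the long form, 1 of 13 protein-coding transcripts, so the fold does not tell the long from the short form. Set per length, Dnmt3a and Dnmt3b together came to 89.5 CPM per kb of transcript in DMSO and 192 in IAA.

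Dnmt3l, the cofactor of both (chromosome 10, 78041947 to 78063622, plus strand), went the other way. Its level was 516 CPM in DMSO and 406 CPM in IAA. With a log2 fold of -0.35 ± 0.05 in the authors' deposited table it fell (limma BH adjusted p = 0.000364). The fold was -0.22 once trends of fold with transcript length, GC and expression were removed, and it still passed (adjusted p = 0.00866). Aire, which encodes a regulator of thymic gene expression and lies on the opposite strand (1664 bases of overlap with Dnmt3l on chromosome 10), also fell, and the authors' deposited table gave it -0.56 ± 0.14 (adjusted p = 0.011 by limma). The sources used here do not say whether the counting used strand, so reads of the 2 genes may not be fully told apart.

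The maintenance pair fell together. Uhrf1 stood at 575 CPM in DMSO and 421 CPM in IAA, a log2 fold of -0.45 ± 0.05 in the authors' deposited table (limma BH adjusted p = 6.28e-05; chromosome 17, 56303321 to 56323486, plus strand). Dnmt1 stood at 392 CPM and 344 CPM, and its fold of -0.19 ± 0.05 in the authors' deposited table was the smallest change among the members that fell (adjusted p = 0.0166 by limma; gene on chromosome 9, 20907209 to 20959888, minus strand). Their intervals do not meet, with -0.57 to -0.33 for Uhrf1 and -0.30 to -0.08 for Dnmt1, though the difference between the genes was not tested. The call for Dnmt1 was lost under the stricter Benjamini-Yekutieli adjustment (adjusted p = 0.173), the range over its alternatives being 0.00518 to 0.173.

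Partners of maintenance moved in both directions. The counts of this list and of those that follow stand beside 13.5% of all genes higher and 12.1% lower. All these lists were chosen with earlier results of these data known. Of 12 listed genes 5 fell, 2 rose and 5 did not pass (median -0.11). The authors' deposited table put Pcna, the sliding clamp of replication, at -0.28 ± 0.04, Dmap1, a DNMT1-binding protein, at -0.24 ± 0.08 and Lig1, the ligase whose methylated form binds UHRF1, at -0.22 ± 0.05. In the authors' deposited table Cdca7l and Uhrf2, the paralog of Uhrf1, rose by 0.38 ± 0.08 and 0.28 ± 0.07. A list for DNA replication and G1/S had 20 falls and 0 rises among 28 genes, with a median of -0.24. The authors' deposited table gave the origin recognition gene Orc1 -0.49 ± 0.07 and E2f1 -0.38 ± 0.09. Dnmt1 and Uhrf1 are themselves expressed with the cell cycle, and the part of cell cycle position in their values was not tested.

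Both abundant TET genes fell. Tet2 went from 124 CPM in DMSO to 74.7 CPM in IAA, with a log2 fold of -0.73 ± 0.10 in the authors' deposited table (limma BH adjusted p = 0.000139; chromosome 3, 133463679 to 133545139, minus strand). That is 1.65-fold lower, the largest fall among the 9 genes. Tet1 went from 236 to 166 CPM, and the authors' deposited table gave it -0.51 ± 0.05 (adjusted p = 1.72e-05 by limma; gene on chromosome 10, 62804570 to 62908996, minus strand), 1.43-fold lower. Per length the pair came to 29.9 CPM per kb in DMSO and 19.7 in IAA.

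Tet3 (chromosome 6, 83362373 to 83459084, minus strand) was poorly measured. It stood at 3.35 CPM in DMSO and 4.31 in IAA, or about 78.1 and 100.4 reads in a library of mean depth. Its log2 fold of 0.36 ± 0.20 in the authors' deposited table did not pass (limma BH adjusted p = 0.212), and the interval runs from -0.07 to 0.79. With the same trends removed the fold was 0.12. The transcript listed for Tet3, ENSMUST00000186548.6, is 5944 bases long and has no 3' untranslated part in the deposited table, while the longest protein-coding transcript of the gene in GENCODE M21 has 10904 bases. If only the listed transcript was counted, reads from the rest would be missed, and the tables do not say.

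Tdg, the glycosylase that ends the oxidative route (chromosome 10, 82629828 to 82650799, plus strand), went from 164 CPM in DMSO to 189 CPM in IAA. Its log2 fold was 0.20 ± 0.06 in the authors' deposited table (limma BH adjusted p = 0.017), lost under the Benjamini-Yekutieli adjustment (adjusted p = 0.177, with 0.00512 as the lowest of its alternatives). This value is uncertain for another reason, since 47.2% of the 75-base words in the Tdg transcript also occur in other genes, among them the pseudogene Tdg-ps. Tdg-ps was listed with a mean log2 CPM of 5.54 and the authors' deposited table gave it a fold of 0.22 ± 0.09 (adjusted p = 0.0901 by limma), so reads may be split between the gene and its copies. For Uhrf1 the share of such words was 11.3% and for Dnmt3b 7.93%, the latter with the germ line paralog Dnmt3c, which lay near the detection floor (mean log2 CPM -3.29). The other 6 genes shared none.

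**Figure D2:**
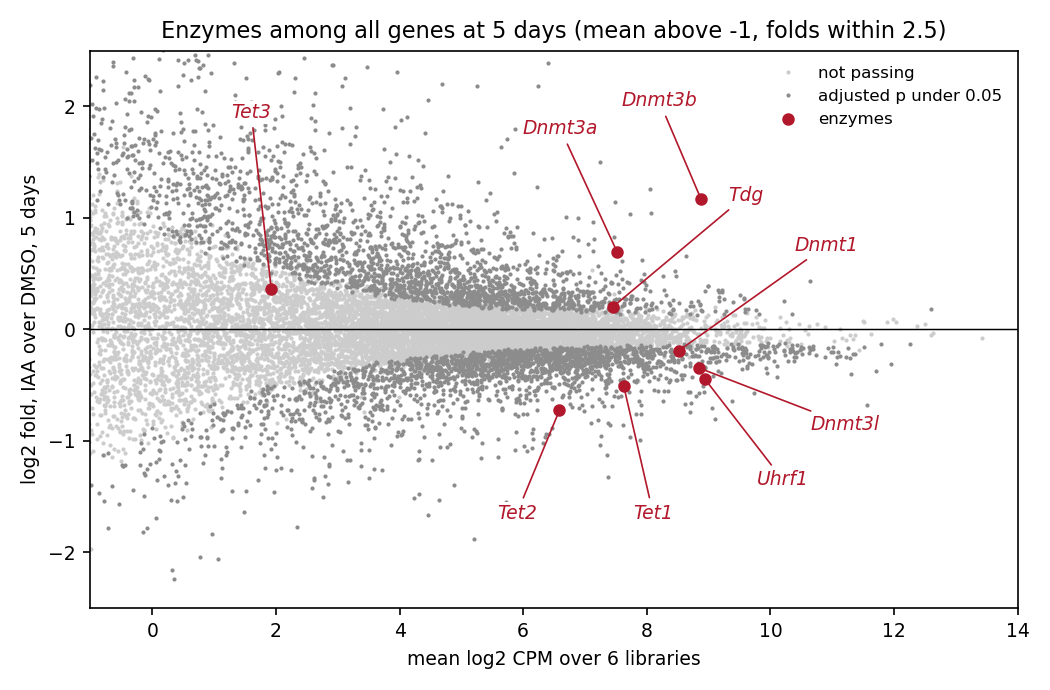
Log2 fold at 5 days (vertical axis) against mean log2 CPM over the 6 libraries (horizontal axis) for genes above a mean of -1 and within folds of 2.5, with genes passing an adjusted p of 0.05 in dark grey, the others in light grey and the 9 enzymes in red. Dnmt3b stands above every other gene of its mean level or higher, whose largest fold is 0.43, though Lefty1 at a mean of 8.06 reached 1.26. Tet3 lies far to the left of the other enzymes at 1.93.

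**Figure D3:**
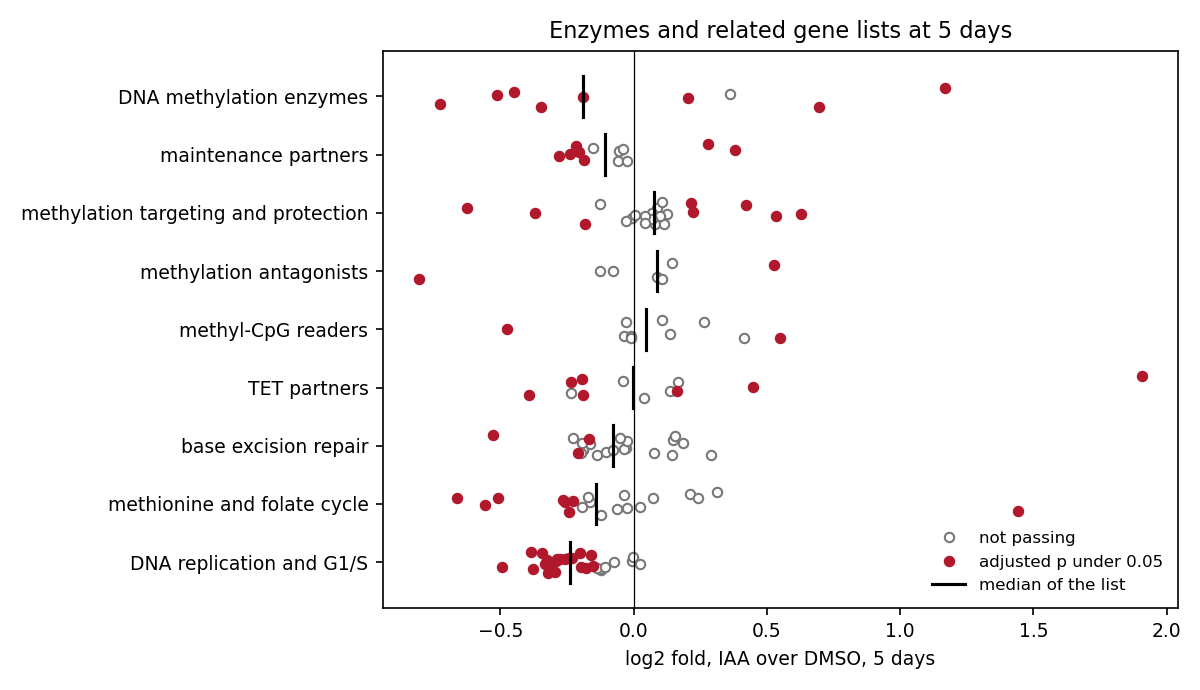
Log2 fold at 5 days (horizontal axis) of each gene in the enzyme set and in 8 related lists, filled where the adjusted p was under 0.05, with a black line at each median. The enzymes spread from -0.73 to 1.17 in both directions, and the replication list lies almost wholly below 0 with a median of -0.24.

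Among factors that target or protect methylation 5 of 22 rose, 3 fell and 14 did not pass (median 0.08), so the share that passed lay between the 25.5% of all genes and the 41.6% of abundant genes. In the authors' deposited table Zfp57, which keeps imprinted regions methylated, stood at -0.63 ± 0.06, its partner Trim28 at -0.37 ± 0.05 and the histone H3 lysine 9 methylase gene Setdb1 at -0.18 ± 0.06. The rises were led by Suv39h1, another lysine 9 methylase gene, E2f6, a repressor of germ line genes, and Nsd2, which encodes another histone methylase, at 0.63 ± 0.10, 0.53 ± 0.07 and 0.42 ± 0.07 in the authors' deposited table.

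Among 7 genes known to oppose methylation 1 rose, 1 fell and 5 did not pass (median 0.09). Prdm14, a repressor of Dnmt3a, Dnmt3b and Dnmt3l in mouse stem cells, had a fold of -0.80 ± 0.14 by the authors' deposited table (adjusted p = 0.000863 by limma). Dppa3, whose product displaces UHRF1 from chromatin, rose by 0.53 ± 0.11 by the authors' deposited table (adjusted p = 0.00369 by limma).

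Readers of methylated CpGs passed in 2 of 10 cases (median 0.05). Zbtb33, which encodes Kaiso, rose by 0.55 ± 0.12 and Zbtb38 had -0.47 ± 0.11 in the authors' deposited table. Of 12 genes listed as TET partners 3 rose, 4 fell and 5 did not pass (median -0.00). Qser1, which protects regions from methylation together with TET1, rose by 0.45 ± 0.09 and Hcfc1, a cofactor bound by OGT, by 0.16 ± 0.05 in the authors' deposited table. The third rise was Cxxc4, a rare transcript (mean log2 CPM -2.18) at 1.91 ± 0.59 in the authors' deposited table. Idh2, a source of the TET cofactor 2-oxoglutarate, had -0.39 ± 0.12, Ogt, the TET-binding sugar transferase, -0.24 ± 0.06 and Samhd1, a nucleotide hydrolase with a less certain place in this list, -0.19 ± 0.06 in the authors' deposited table.

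Base excision repair, which follows TDG, had 3 falls and 0 rises among 21 genes (median -0.08), a share of falls near the 12.1% of all genes. The authors' deposited table put the glycosylase gene Neil1 at -0.53 ± 0.14 and the strand break sensors Parp2 and Parp1 at -0.21 ± 0.06 and -0.17 ± 0.04. The methionine and folate cycle, which makes the methyl donor, had 7 falls and 1 rise among 20 (median -0.14). Cbs, which draws homocysteine out of the cycle, had -0.66 ± 0.08 and the serine hydroxymethylase gene Shmt2 -0.56 ± 0.07, and the rare transcript Mthfd2l rose by 1.44 ± 0.29, all by the authors' deposited table. Among 20 germ line genes listed as targets of promoter methylation 2 rose and 5 fell (median -0.10), Tdrd1 and Taf7l at 1.06 ± 0.24 and 0.50 ± 0.17, Tuba3a and Stk31 at -0.99 ± 0.08 and -0.51 ± 0.10 in the authors' deposited table. Several of these genes were not silent in DMSO cells, with derived levels of 6.66 log2 CPM for Tuba3a, 5.74 for Sycp3 and 5.48 for Hormad1, so the list is no readout of silencing.

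Genes of the naive and of the formative and primed states were also listed, and their part in the Dnmt3 values was not tested. Both lists were chosen with earlier results of these data known, so their counts describe the listed genes and are no independent test. Of 18 formative and primed genes 14 rose and 1 fell (median 0.54), with Fgf5 at 4.82 ± 0.59, Pou3f1 at 2.39 ± 0.13 and Etv4 at -0.39 ± 0.06 in the authors' deposited table. Utf1 and Etv5 of that list did not pass, at -0.01 ± 0.06 and 0.00 ± 0.05 by the authors' deposited table. Among 18 naive genes 16 fell and 1 rose, the one being Dppa3 (median -0.60), with Tbx3 at -1.55 ± 0.19 and Tfcp2l1 at -1.13 ± 0.08 in the authors' deposited table.

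Markers of the labelled cell type were high throughout. The 12 stem cell markers summed to 8507 CPM in IAA and 9852 in DMSO at 5 days, 1 rising and 7 falling, with Lin28a at 0.36 ± 0.08, Esrrb at -0.81 ± 0.10 and Nanog at -0.74 ± 0.06 in the authors' deposited table. Of those that fell, Nanog, Zfp42, Esrrb and Fgf4 were already counted in the naive list. Utf1 also stands in the formative and primed list. Fibroblast feeder markers had 7 rises and 1 fall among 23 measured (881 CPM in IAA and 951 in DMSO), with Col6a2 at 1.57 ± 0.32, Twist1 at 1.5 ± 0.20 and Vim at -0.86 ± 0.07 in the authors' deposited table. The other fibroblast markers that rose were Mmp2 (1.14 ± 0.10), Tagln (0.70 ± 0.15), Fbn1 (0.62 ± 0.16), Col6a1 (1.94 ± 0.45) and Lox (4.75 ± 0.64), named after their values were seen and valued by the authors' deposited table. Of these, Lox (mean log2 CPM -2.22, derived DMSO level -4.59) and Col6a1 (mean -1.46) were rare transcripts, so the size of their folds is uncertain. Levels in this list were uneven, with mean log2 CPM of 9.29 for Fn1, 4.13 for Mmp2 and 2.56 for Thy1, and of -3.37 for Col3a1, -4.49 for Dcn and -4.55 for Postn near the floor. Primitive endoderm markers had 6 rises and 1 fall among 13 (380.3 and 384.7 CPM). The authors' deposited table gave 1.79 ± 0.23 for Dab2, 0.78 ± 0.27 for Gata4 and -0.97 ± 0.07 for Lama1. Neuroectoderm markers had 2 rises and 2 falls among 11 (297 and 463 CPM), Nes at 1.77 ± 0.21, Stmn2 at -0.97 ± 0.05 and Tubb3 at -0.61 ± 0.07 in the authors' deposited table. The part of other cell types in the members' values was not tested.

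Levels can be compared between genes only per length of the listed transcript. In DMSO at 5 days the order ran from Dnmt3l (283 CPM per kb) and Uhrf1 (160) through Dnmt3b (74.6), Dnmt1 (73.1) and Tdg (46.8) to Tet1 (16.5), Dnmt3a (14.9), Tet2 (13.5) and Tet3 (0.564). Neighbours in that order differed by more than 2 combined SEs except Dnmt3b and Dnmt1, and Dnmt3a and Tet2. In IAA Dnmt3b stood at 168 CPM per kb, above Uhrf1 at 117, and Dnmt3a at 24.1, above Tet1 at 11.5. All neighbours in the IAA order differed by more than 2 combined SEs. The SEs in these orders cover the spread of libraries only, and not the choice of listed transcript or reads shared with other genes. In the 10-day control the order was Dnmt3l (205 CPM per kb), Uhrf1 (164), Dnmt1 (76.9), Tdg (39.6), Dnmt3b (29.7), Tet1 (22.7), Tet2 (19.4), Dnmt3a (7.72) and Tet3 (0.369), where the neighbours Tet1 and Tet2 alone lay within 2 combined SEs. In cells 10 days after IAA, Dnmt3l (172) and Uhrf1 (171) lay within 2 combined SEs of each other, as did Tet1 (28.0) and Dnmt3b (27.2).

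**Figure D4:**
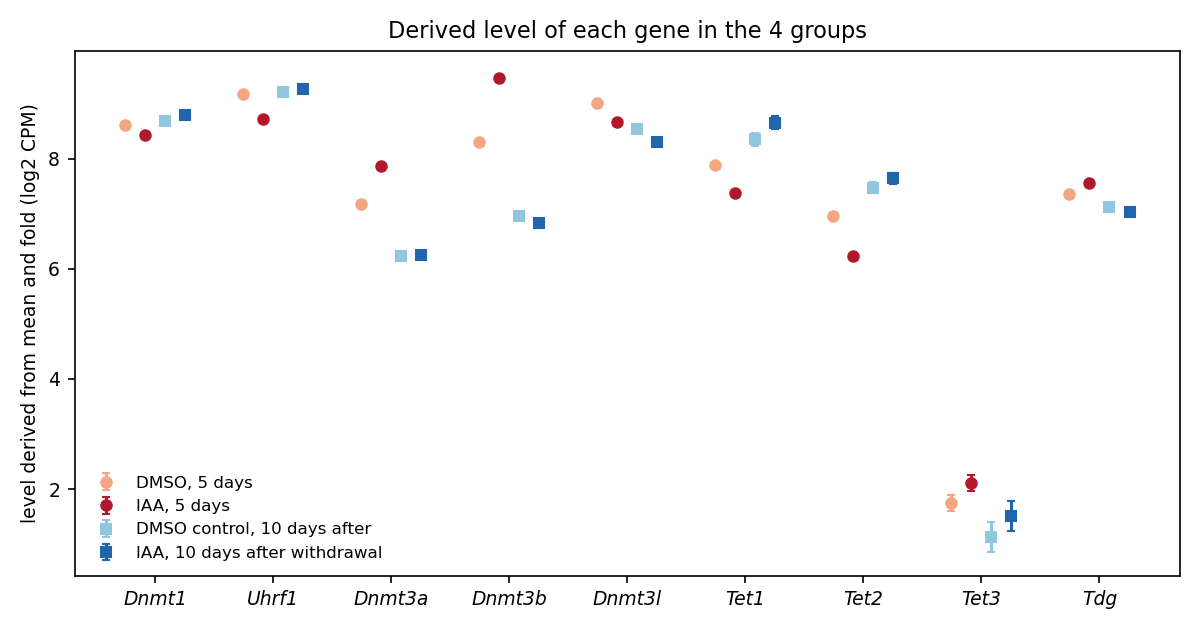
Level of each gene in log2 CPM (vertical axis), derived from the deposited mean and fold, in DMSO and IAA at 5 days (light and dark red circles) and in the DMSO control and IAA-treated cells 10 days after withdrawal (light and dark blue squares), with bars for the SE of the fold divided by the square root of 2. Dnmt3a and Dnmt3b stand lower in both 10-day groups than in either 5-day group, Tet1 and Tet2 stand higher, and levels of the 2 times come from tables normalized separately.

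The second comparison asks whether the members still differed from their control 10 days after IAA was withdrawn. After limma's BH adjustment none of the 9 genes passed 0.05 at 10 days, and neither did any other gene (0% of 18712, the smallest adjusted p being 0.822). At an unadjusted p under 0.05 there was 1 of the 9 genes, Dnmt3l, against 4.3% of all genes. Dnmt3l stood at 314 CPM in treated cells and 373 in control, a log2 fold of -0.25 ± 0.10 in the authors' deposited table (limma BH adjusted p = 0.901). Dnmt3b had -0.12 ± 0.10 with an interval of -0.34 to 0.09, and Dnmt3a 0.02 ± 0.09 with -0.18 to 0.22, in the authors' deposited table. These intervals leave out the 5-day folds of both genes. Tet1 had 0.30 ± 0.16, Tet2 0.17 ± 0.15 and Tet3 0.38 ± 0.38, Dnmt1 0.10 ± 0.09, Uhrf1 0.06 ± 0.09 and Tdg -0.08 ± 0.09 in the authors' deposited table (by limma, adjusted p from 0.901 to 0.967 over the 9 genes). SEs were larger here, with a median of 0.115 among genes averaging 3 log2 CPM or more against 0.077 at 5 days, so folds as small as that of Dnmt1 at 5 days were hard to detect.

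The other lists had 10-day medians from -0.10 for germ line genes to 0.29 for fibroblast markers. Of 22 fibroblast markers 6 had an unadjusted p under 0.05, against 4.3% of all genes. The list summed to 1520 CPM in treated and 1284 in control cells, or 10.57 and 10.33 on the log2 scale. Fn1 alone stood at 10.30 and 10.00 log2 CPM in these groups, so the sums mostly follow that gene and not the list. The change between the times was tested with a two-sided z test on each gene's 5-day minus 10-day log2 fold, BH adjusted over the 18120 genes with the same transcript in both tables. For this test each t was first turned into a normal score of equal p, and the fold divided by that score served as its SE. These SEs are larger than fold over t where t is large, so the intervals of the differences are wider than the SEs printed above would give. Of the 9 genes 5 passed, against 5.47% of all genes. With only genes averaging 1 log2 CPM or more at both times, 1005 of 11416 passed, and the same number of members. No share was taken among genes as abundant as most members. Dnmt3b had a 5-day fold 1.29 above its 10-day fold (SE of the difference 0.23, interval 0.85 to 1.73, adjusted p = 1.89e-05 over both tables). For Dnmt3a the difference was 0.67 (0.35 to 1.0, adjusted p = 0.00432 over both tables). Tet2 differed by -0.89 (-1.32 to -0.46), Tet1 by -0.82 (-1.21 to -0.42) and Uhrf1 by -0.51 (-0.76 to -0.26), with adjusted p-values of 0.00376, 0.00374 and 0.00467. Dnmt1 (-0.29, interval -0.51 to -0.07, adjusted p = 0.113) and Tdg (0.29, interval 0.06 to 0.51, adjusted p = 0.114) did not pass. For Dnmt3l the difference was -0.10 with an interval of -0.37 to 0.18, and for Tet3 it was -0.02 with -0.90 to 0.86.

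The 2 times also differed in the level at which the members stood in DMSO cells. The derived DMSO level of Dnmt3b was 314 CPM at 5 days and 125 CPM in the 10-day control, a difference of -1.33 in log2 CPM, and that of Dnmt3a was 144 and 74.7 CPM (-0.95). Tet1 (0.47) and Tet2 (0.52) were higher in the 10-day control, while Dnmt1 (0.07) and Uhrf1 (0.04) were close. Over the 11782 genes averaging 1 log2 CPM or more, the same difference had a median of 0.00 and a 5th to 95th percentile range of -1.01 to 0.96. The tables were normalized separately, so no test was made. The mean levels, which do not depend on how the sign of a fold is read, differed the same way, by -1.98 for Dnmt3b and 0.97 for Tet2.

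The genes nearest to Dnmt3b and Tet2 over the 2 folds were of varied kinds. Among 646 genes within 1 of its mean log2 CPM, the nearest by Euclidean distance over the 5-day and 10-day log2 folds were Lefty1, an antagonist of Nodal (distance 0.19), Fat1, an atypical cadherin (0.28), and Ajuba, a LIM protein (0.51). Their 5-day folds were 1.26 ± 0.06, 1.04 ± 0.10 and 0.66 ± 0.08 in the authors' deposited table. For Tet2, among 3302 genes, the nearest were Gli2, a Hedgehog transcription factor, Slc7a1, a transporter of cationic amino acids, and Fzd5, a WNT receptor, at distances of 0.06, 0.08 and 0.08. The authors' deposited table gave these -0.69 ± 0.06, -0.68 ± 0.06 and -0.65 ± 0.08 at 5 days. Likeness here rests on 2 values per gene.

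The transcripts of the members were long. Their median length was 5367 bases against 2743 over all genes at 5 days, and they ranged from 1822 for Dnmt3l to 14369 for Tet1. The 5' untranslated parts had a median of 283 bases against 168, and upstream AUGs numbered from 0 in Dnmt3b and Uhrf1 to 7 in Tet2, with a median of 2 against 1. The 3 members that rose had 1, 0 and 1 upstream AUGs (Dnmt3a, Dnmt3b and Tdg) and the 5 that fell had 3, 0, 4, 2 and 7 (Dnmt1, Uhrf1, Dnmt3l, Tet1 and Tet2), given as a description with no test.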

How the data were processed

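Poly(A) RNA of 12 libraries was made into TruSeq libraries after Trizol extraction, per the labels. The 2 files are the authors' own comparisons, with limma column names per the file headers; the sources used here do not give the aligner, counter, build or limma version. The authors deposited log2 folds and mean log2 CPM per gene. The deposited t statistic and log-odds are scores. Each deposited p-value stands beside its BH adjusted value, which a recomputation matched within 4.86e-05. The deposited GC contents are fractions, folding energies are scores without a named unit, and lengths and upstream AUGs are whole numbers. Columns hold no single libraries, so the planned count test could not be run. An emptied row per table was not used, and 27 symbols per table that a spreadsheet had turned into dates were restored from gene IDs.

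From these values SEs, 95% intervals (13.4 and 15.2 degrees of freedom at 5 and 10 days), group levels and the difference between times were computed with Python 3.11.15, numpy 2.4.6, scipy 1.17.1 and pandas 2.3.3, after a check on simulated data. Depth assumed a prior count of 0.5. Called means an adjusted p under 0.05 over the whole table. The members and the 15 other gene lists, the latter named up to 2 or 3 genes each way by size of change above a mean log2 CPM of 0, were chosen with earlier results of these data known. The 6 alternative settings set out at the start were run, and another was added after the data were seen. Promoter sequences are RefSeq's on GRCm38.p6, and 14 of the 16 windows continued into a GENCODE M21 transcript of the gene.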

Additional observations from a re-analysis of the deposited data

Results flagged for a closer look

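For 5 of the 9 genes the effect at 5 days differed from that at 10 days by a test of the difference itself, the z test over 18120 genes. The 5-day minus 10-day log2 fold was 1.29 for Dnmt3b and 0.67 for Dnmt3a, whose 5-day folds were above 0. It was -0.89 for Tet2, -0.82 for Tet1 and -0.51 for Uhrf1, whose 5-day folds were below 0. These are the members with the 5 largest changes at 5 days. Across all genes 5.47% passed the same test, and 1005 of 11416 with only genes averaging 1 log2 CPM or more at both times. The DMSO level of Dnmt3b also differed between the times by -1.33 in log2 CPM, and its part in the difference of folds was not tested.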

How the results depend on the processing

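No paired analysis was possible because the tables hold no values of single libraries. For the same reason the planned runs without each replicate and with other normalizations were not run. The 6 alternative settings were a median fold set to 0, trends on transcript length and GC removed, the same with expression, only genes averaging 1 log2 CPM or more, the Benjamini-Yekutieli adjustment and an adjusted p under 0.01. At 5 days 8 of the 9 genes passed under the first 4 and 6 under the last 2, where Dnmt1 and Tdg were lost. No member passed at 10 days and 5 differed between times under each of them, and also with a t distribution in place of z, chosen after the data were seen. The 10-day fold of Dnmt3a, 0.02 as deposited, turned to -0.11 with length and GC trends removed and to -0.11 with expression added, with adjusted p-values of 0.967 or more throughout. With length, GC and expression trends removed Dnmt3l went from -0.35 to -0.22 at 5 days and from -0.25 to -0.16 at 10 days, and Tet3 from 0.36 to 0.12 and from 0.38 to 0.22. With length and GC trends removed the 10-day folds of Tet1 and Tet2 went from 0.30 and 0.17 to 0.14 and 0.06, and that of Dnmt1 from 0.10 to 0.04. Over all genes, the 4789 calls at 5 days became 2084 under Benjamini-Yekutieli and 2789 at 0.01, and the 991 differences between times became 243 and 366. Rare transcripts limit precision, Tet3 most of all.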
